A study of Homo sapiens with 8 samples.

Results

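The genes described here make cholesterol and fatty acids, or sense and move the products. They were chosen as a list of 36 symbols from the mevalonate and sterol pathways, the sterol-sensing machinery, sterol transport and fatty acid synthesis. Each was taken from the transcript cluster whose platform annotation carries the symbol, alone or with others, and from the cluster with the highest mean over all arrays where there were several. A cluster was found for 35 of the 36, among 18033 symbols on 17881 clusters, and FDFT1 was not analysed here. Of the 35, 6 were read from clusters that carry other symbols as well: ACAT2, CYP51A1, HSD17B7, SREBF2, NPC1 and FADS1. The list was drawn up with earlier results of these data known, so its counts and shares below describe it and do not test it.

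Expression was measured on 8 Affymetrix Human Exon arrays of cells labelled RS4;11, an established line from a B-lineage leukemia with an MLL gene fusion. The groups were BTG1 shRNA with prednisolone, BTG1 shRNA with vehicle, control shRNA with prednisolone and control shRNA with vehicle, each exposed for 8 h and each with 2 arrays. All groups carried an shRNA vector, and prednisolone is a synthetic glucocorticoid that binds the glucocorticoid receptor. The series asks how knockdown of BTG1, an antiproliferative protein, alters the response to it, and selected changes over 2-fold. The labels give neither the cultures behind the 2 arrays of each group nor how many clones the shRNA lines represent, so p-values measure only how far these arrays differ, and that spread may be technical.

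Cholesterol is built from acetyl-CoA through mevalonate, isoprenoids, squalene and lanosterol, and fatty acids are built from the same acetyl-CoA through malonyl-CoA. Both routes are controlled by the SREBP transcription factors, which are held in the endoplasmic reticulum by SCAP and the INSIG proteins when sterols are plentiful and are cut free when sterols run low. SREBP-2, from SREBF2, mainly drives sterol genes, and SREBP-1, from SREBF1, mainly drives fatty acid genes. Dividing leukemia cells use both products to build membranes.

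The arrays labelled BTG1 shRNA did not read like those with control shRNA in lineage. The mean log2 level of 12 T-cell markers was 8.79 to 8.91 with prednisolone and 8.94 to 9.02 with vehicle on arrays labelled BTG1 shRNA, against 4.08 to 4.24 with prednisolone and 4.30 to 4.80 with vehicle on the control shRNA arrays. For 11 B-lineage markers the means were 4.30 to 4.53 with prednisolone and 4.22 to 4.45 with vehicle on arrays labelled BTG1 shRNA, against 8.21 to 8.23 with prednisolone and 8.42 to 8.82 with vehicle on the control arrays. By these means the B-lineage label of RS4;11 was met on the control arrays only. Every difference between the shRNAs below is also a difference between these lineage patterns. Single markers departed from the means. CD2 read 2.83 to 3.16 and MS4A1 3.40 to 4.48 over all arrays. CD72, on a cluster shared with TESK1, read 8.15 to 8.52 on arrays labelled BTG1 shRNA and 7.66 to 8.21 on the control arrays. On the control arrays LCK read 6.36 to 7.71 and CD7 7.18 to 8.18. Knockdown and cell identity cannot be told apart here, nor can fewer cells of a type and less RNA per cell. BTG1 itself, on a cluster shared with LINC01619, read 8.14 and 7.80 with prednisolone and 7.15 and 7.42 with vehicle on arrays labelled BTG1 shRNA, against 10.51 and 10.70 with prednisolone and 9.34 and 9.36 with vehicle on the control arrays. With prednisolone, NR3C1, the glucocorticoid receptor gene, read 7.25 and 7.25 on arrays labelled BTG1 shRNA and 10.63 and 10.90 on the control arrays. Prednisolone arrays differed from vehicle by 0.99 (SE 0.17) for TSC22D3 and 0.34 (SE 0.35) for FKBP5 on arrays labelled BTG1 shRNA. On the control arrays these glucocorticoid-induced genes differed by 2.67 (SE 0.17) and 2.70 (SE 0.35). The FKBP5 cluster also carries LOC285847. Their link to the genes below was not tested. Control vehicle array 1 stood apart, with an interquartile range of 2.95 against 3.39 to 3.80 for the others. Of 6 markers of liver and fat cells, which make much lipid, ALB, APOB, ADIPOQ and LEP lay between percentiles 11.3 and 29.9 of their arrays, and APOA1 and PLIN1 between percentiles 45.5 and 63.2.

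Promoters of 31 of the 35 genes were held in the RefSeq table (GRCh38.p14, 250 bases before to 50 after the start), 44 promoters in all. They were searched on both strands for 5 motifs. The classical sterol regulatory element, the site SREBPs bind, was searched as its exact consensus, which was in 16 of 35116 promoters (0.0456%) and in 1 of the 44, that of SREBF2. The looser core CACNCCAC, which every match of that element also holds, was in 5.87% of all promoters and in 8 of the 44 (18.2%), from INSIG1, ABCA1, IDI1, SCD, SC5D, ACACA and SREBF2. A CCAAT box, bound by the SREBP partner NF-Y, was in 34.6% of all promoters and in 25 of the 44 (56.8%). The Sp1 box GGGCGG was in 45% of all promoters and in 39 of the 44 (88.6%). The palindromic glucocorticoid response element, with a free spacer, was in 0.00285% of all promoters and in 0 of the 44. A match describes these letters only, and a missing match says nothing of the factor. The 5 promoters below are shown because they belong to the SREBP-2 gene, to a sterol sensor and to 3 of the enzymes over 2-fold higher with prednisolone on arrays labelled BTG1 shRNA, and capitals mark the sterol regulatory element, the CACNCCAC core and CCAAT boxes on either strand.
SREBF2: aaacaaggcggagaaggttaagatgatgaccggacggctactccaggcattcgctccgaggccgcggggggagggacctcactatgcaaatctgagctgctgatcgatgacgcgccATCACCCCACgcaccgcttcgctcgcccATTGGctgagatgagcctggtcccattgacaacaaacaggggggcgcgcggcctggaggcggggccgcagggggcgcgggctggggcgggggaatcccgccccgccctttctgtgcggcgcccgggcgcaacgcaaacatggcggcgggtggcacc
INSIG1: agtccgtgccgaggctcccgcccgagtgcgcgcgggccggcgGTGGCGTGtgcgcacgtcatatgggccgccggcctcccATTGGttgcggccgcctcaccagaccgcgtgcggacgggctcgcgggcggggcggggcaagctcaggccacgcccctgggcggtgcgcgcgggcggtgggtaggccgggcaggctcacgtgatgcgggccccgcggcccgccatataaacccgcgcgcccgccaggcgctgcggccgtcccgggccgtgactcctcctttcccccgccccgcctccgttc
LSS: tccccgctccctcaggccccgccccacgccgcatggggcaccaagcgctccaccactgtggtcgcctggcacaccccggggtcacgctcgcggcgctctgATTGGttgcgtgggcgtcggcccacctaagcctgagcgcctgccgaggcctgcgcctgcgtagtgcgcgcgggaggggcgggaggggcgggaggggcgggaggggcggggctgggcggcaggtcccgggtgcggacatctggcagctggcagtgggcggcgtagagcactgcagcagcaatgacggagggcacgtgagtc
MVD: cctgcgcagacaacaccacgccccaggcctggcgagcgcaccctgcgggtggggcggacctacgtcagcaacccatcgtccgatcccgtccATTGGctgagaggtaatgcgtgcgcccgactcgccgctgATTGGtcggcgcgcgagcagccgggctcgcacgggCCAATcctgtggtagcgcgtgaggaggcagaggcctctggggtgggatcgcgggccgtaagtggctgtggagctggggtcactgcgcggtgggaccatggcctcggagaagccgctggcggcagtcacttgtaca
MVK: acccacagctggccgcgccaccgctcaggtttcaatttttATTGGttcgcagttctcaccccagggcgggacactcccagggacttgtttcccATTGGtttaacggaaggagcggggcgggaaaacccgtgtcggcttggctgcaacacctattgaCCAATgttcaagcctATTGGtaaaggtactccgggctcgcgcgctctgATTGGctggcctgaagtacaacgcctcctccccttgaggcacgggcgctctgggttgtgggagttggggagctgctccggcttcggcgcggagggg
They lie at chr22:41832855-41833154 on the plus strand (SREBF2), chr7:155297628-155297927 on the plus strand (INSIG1), chr21:46228725-46229024 on the minus strand (LSS), chr16:88663042-88663341 on the minus strand (MVD) and chr12:109573544-109573843 on the plus strand (MVK). The element in SREBF2 starts 134 bases before the transcription start. The MVD window holds 3 CCAAT boxes and the MVK window 5.

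With prednisolone on arrays labelled BTG1 shRNA, cholesterol and fatty acid genes were among the largest increases, although no gene passed the test across all clusters. Of the 35 genes, 6 stood over 2-fold higher than with vehicle: HSD17B7 (on a cluster shared with its pseudogene), MVD, HMGCS1, ACSS2, MVK and LSS. Read from clusters with 1 symbol, which leaves out HSD17B7, 5 of 31 genes did. Only 25 of 17881 clusters did so (0.14%), so the 6 made up 17.1% of the genes and 24% of the 25 clusters. As the list was chosen with earlier results of these data known, these shares cannot test whether it stands out. On the control arrays 0 of these 6 were over 2-fold higher with prednisolone, where 3.86% of all clusters were. The 6 were picked by their differences on arrays labelled BTG1 shRNA, so this count does not compare the labels. On the control arrays LSS lay below vehicle without overlap, and ACSS2 above it. Levels by gene follow, in order of their place in the pathway, as log2 values of the 2 arrays of each group.

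**Figure D1:**
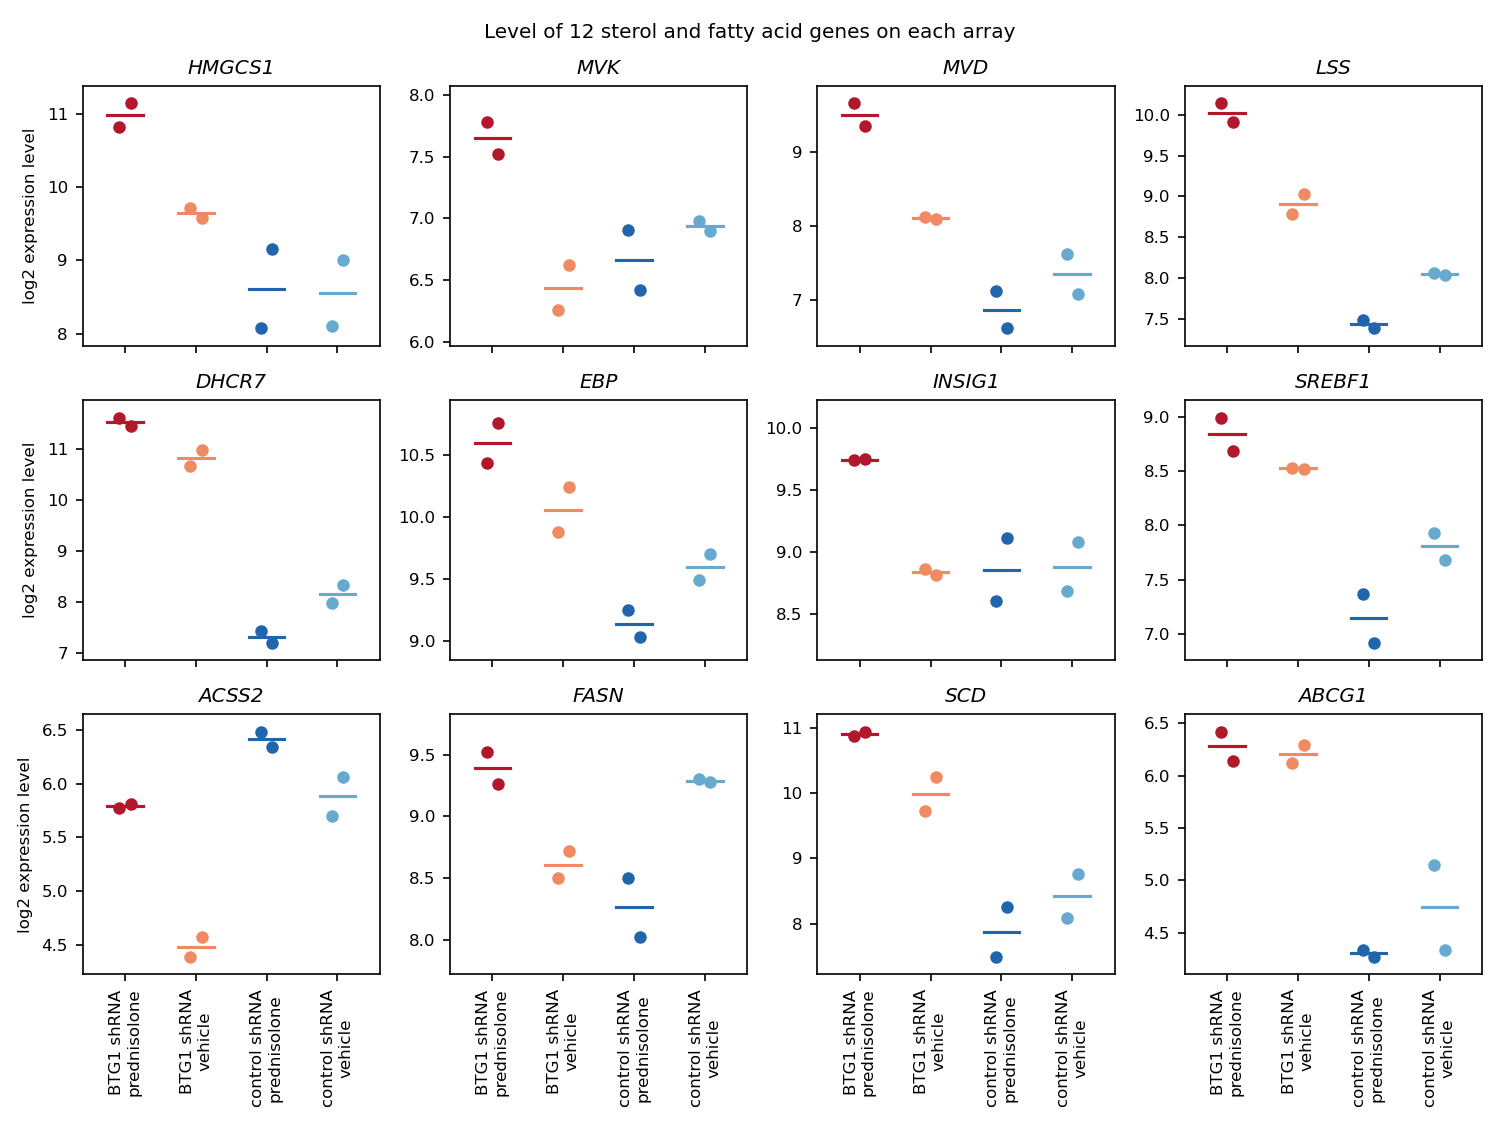
Log2 expression level of 12 of the genes, a panel each, with a point for each array and a line for the mean of the 2 arrays of a group, and the 4 groups along the horizontal axis. HMGCS1, MVK, MVD, LSS, DHCR7, EBP, INSIG1, SREBF1 and SCD are highest on both arrays labelled BTG1 shRNA with prednisolone, and ABCG1 separates by shRNA label.

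At the entry to the mevalonate route, HMGCS1, the synthase that joins acetyl-CoA and acetoacetyl-CoA, read 10.82 and 11.14 with prednisolone and 9.72 and 9.58 with vehicle on arrays labelled BTG1 shRNA, and 8.07 and 9.15 with prednisolone and 8.11 and 9.0 with vehicle on the control arrays. Both prednisolone arrays labelled BTG1 shRNA lay above all 6 others, and the control treatments overlapped. The difference from vehicle was 1.33 (SE 0.40, n = 2 arrays a group) on arrays labelled BTG1 shRNA and 0.05 (SE 0.40) on the control arrays. MVK, the kinase that phosphorylates mevalonate, read 7.78 and 7.52 with prednisolone and 6.26 and 6.62 with vehicle on arrays labelled BTG1 shRNA, and 6.91 and 6.42 with prednisolone and 6.98 and 6.90 with vehicle on the control arrays. Its BTG1 shRNA vehicle arrays lay below both control vehicle arrays, and its prednisolone arrays above all 6 others. MVD, which decarboxylates mevalonate diphosphate, read 9.65 and 9.35 with prednisolone and 8.11 and 8.09 with vehicle on arrays labelled BTG1 shRNA, and 7.12 and 6.61 with prednisolone and 7.62 and 7.07 with vehicle on the control arrays. Here the 4 arrays labelled BTG1 shRNA lay above all control arrays, with prednisolone highest. The prednisolone difference of MVK was 1.21 (SE 0.23) on arrays labelled BTG1 shRNA and -0.27 (SE 0.23) on the control arrays, and that of MVD was 1.40 (SE 0.26) on arrays labelled BTG1 shRNA and -0.48 (SE 0.26) on the control arrays.

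ACAT2, the cytosolic enzyme that makes acetoacetyl-CoA, separated by shRNA label. Its cluster, annotated with SOD2-OT1 too, read 9.90 and 10.70 with prednisolone and 9.76 and 9.90 with vehicle on arrays labelled BTG1 shRNA, against 7.75 and 8.95 with prednisolone and 7.90 and 8.22 with vehicle on the control arrays. The 4 arrays of each label did not overlap, and the treatments overlapped within both labels. The other 3 genes up to farnesyl diphosphate had smaller differences than HMGCS1, MVK and MVD on arrays labelled BTG1 shRNA. IDI1, the isomerase of isopentenyl diphosphate, differed from vehicle by 0.61 (SE 0.28) on arrays labelled BTG1 shRNA and 0.57 (SE 0.28) on the control arrays, without overlap in either. FDPS, which makes farnesyl diphosphate, differed by 0.34 (SE 0.23) on arrays labelled BTG1 shRNA and -0.32 (SE 0.23) on the control arrays. PMVK, the kinase after MVK, differed by -0.04 (SE 0.21) on arrays labelled BTG1 shRNA and -0.12 (SE 0.21) on the control arrays.

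Among the 9 measured enzymes from squalene to cholesterol, 8 read higher with prednisolone without overlap on arrays labelled BTG1 shRNA, as did 18% of all clusters. On the control arrays 0 of the 9 did, against 15.3% of all clusters. LSS, which closes squalene epoxide into lanosterol, read 10.14 and 9.91 with prednisolone and 8.79 and 9.03 with vehicle on arrays labelled BTG1 shRNA, and 7.48 and 7.38 with prednisolone and 8.06 and 8.03 with vehicle on the control arrays. The 4 groups did not overlap at all and stood in opposite order within each label, with a prednisolone difference of 1.11 (SE 0.18) on arrays labelled BTG1 shRNA and -0.61 (SE 0.18) on the control arrays. DHCR7, the last reductase before cholesterol, read 11.61 and 11.45 with prednisolone and 10.66 and 10.98 with vehicle on arrays labelled BTG1 shRNA, against 7.44 and 7.21 with prednisolone and 7.98 and 8.34 with vehicle on the control arrays. It had the same order of groups as LSS, and its prednisolone differences were 0.71 (SE 0.21) on arrays labelled BTG1 shRNA and -0.83 (SE 0.21) on the control arrays. EBP, the sterol isomerase, read 10.44 and 10.76 with prednisolone and 9.88 and 10.24 with vehicle on arrays labelled BTG1 shRNA, against 9.25 and 9.03 with prednisolone and 9.49 and 9.70 with vehicle on the control arrays. The order was again the same, with differences of 0.53 (SE 0.22) on arrays labelled BTG1 shRNA and -0.45 (SE 0.22) on the control arrays.

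TM7SF2, a sterol reductase, read 8.51 and 8.32 with prednisolone and 7.67 and 8.07 with vehicle on arrays labelled BTG1 shRNA, against 7.10 and 6.52 with prednisolone and 7.28 and 6.78 with vehicle on the control arrays. All arrays labelled BTG1 shRNA lay above all control arrays, and prednisolone lay 0.55 (SE 0.28) from vehicle on arrays labelled BTG1 shRNA and -0.23 (SE 0.28) on the control arrays. HSD17B7, a sterol ketone reductase, was read from a cluster (3243262) that also carries its pseudogene HSD17B7P2, DDR2, LINC01347 and LOC100288069, so its signal may not be that of HSD17B7. That cluster read 6.32 and 6.71 with prednisolone and 4.37 and 4.42 with vehicle on arrays labelled BTG1 shRNA, and 6.30 and 7.06 with prednisolone and 5.87 and 7.28 with vehicle on the control arrays. Only the vehicle arrays labelled BTG1 shRNA stood apart, and they were low, which made the prednisolone difference of 2.12 (SE 0.45) the largest of the 35. The remaining 4, SQLE (squalene epoxidase), CYP51A1 (lanosterol demethylase, on a cluster shared with LRRD1), NSDHL (a decarboxylating dehydrogenase) and SC5D (the C5 desaturase), differed from vehicle by 0.35 to 0.75 on arrays labelled BTG1 shRNA and by -0.20 to 0.63 on the control arrays, where all 4 overlapped.

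Among the sensors and factors INSIG1 had the largest difference from vehicle on arrays labelled BTG1 shRNA. INSIG1, the SREBP target whose protein retains SCAP, read 9.74 and 9.75 with prednisolone and 8.86 and 8.81 with vehicle on arrays labelled BTG1 shRNA, and 8.60 and 9.11 with prednisolone and 8.68 and 9.08 with vehicle on the control arrays. Only the first of these groups stood apart, above all 6 other arrays, with a difference from vehicle of 0.91 (SE 0.23) against -0.02 (SE 0.23) on the control arrays. INSIG2, its relative, read 6.71 and 6.11 with prednisolone and 6.93 and 6.04 with vehicle on arrays labelled BTG1 shRNA, and 6.13 and 6.72 with prednisolone and 4.78 and 5.86 with vehicle on the control arrays. It was lowest on control vehicle array 1, and its prednisolone difference was -0.07 (SE 0.45) on arrays labelled BTG1 shRNA and 1.10 (SE 0.45) on the control arrays.

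SREBF1 read 8.99 and 8.68 with prednisolone and 8.53 and 8.52 with vehicle on arrays labelled BTG1 shRNA, against 7.37 and 6.92 with prednisolone and 7.93 and 7.68 with vehicle on the control arrays. The groups kept the order seen for LSS, with differences from vehicle of 0.31 (SE 0.22) on arrays labelled BTG1 shRNA and -0.66 (SE 0.22) on the control arrays. SREBF2, on a cluster shared with MIR33A, an intronic microRNA of the gene, read 10.33 and 10.19 with prednisolone and 9.76 and 9.98 with vehicle on arrays labelled BTG1 shRNA, and 9.89 and 9.64 with prednisolone and 9.76 and 9.90 with vehicle on the control arrays. It differed from vehicle by 0.38 (SE 0.19) on arrays labelled BTG1 shRNA and -0.07 (SE 0.19) on the control arrays, and all groups but the prednisolone arrays labelled BTG1 shRNA overlapped. SCAP, the SREBP escort, read 8.62 and 8.34 with prednisolone and 8.42 and 8.26 with vehicle on arrays labelled BTG1 shRNA, and 8.06 and 7.83 with prednisolone and 8.59 and 8.20 with vehicle on the control arrays. The control prednisolone arrays were lowest, at -0.44 (SE 0.21) from their vehicle arrays, against 0.14 (SE 0.21) on arrays labelled BTG1 shRNA.

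Of the 5 transport and efflux genes on the clusters chosen, 1 read higher with prednisolone without overlap on arrays labelled BTG1 shRNA. This was STARD4, a cytosolic sterol carrier. It differed from vehicle by 0.66 (SE 0.39) there and by 0.58 (SE 0.39) on the control arrays, where the treatments overlapped. ABCG1, a sterol exporter that oxysterol-activated LXR induces, read 6.42 and 6.14 with prednisolone and 6.12 and 6.29 with vehicle on arrays labelled BTG1 shRNA, against 4.34 and 4.27 with prednisolone and 5.15 and 4.34 with vehicle on the control arrays. It separated by label with no overlap, and its treatments overlapped within both. ABCA1, the other LXR-driven exporter, was dim, at the 19th to 28th percentile of its arrays, and MYLIP, which marks the LDL receptor for degradation, read 4.82 to 5.23 over all 8 arrays. NPC1, the lysosomal cholesterol exporter, was read from a cluster shared with RMC1 and differed from vehicle by -0.34 (SE 0.27) on arrays labelled BTG1 shRNA and -0.13 (SE 0.27) on the control arrays. On the cluster annotated with NPC1 alone these differences were 0.46 (SE 0.28) on arrays labelled BTG1 shRNA and 0.55 (SE 0.28) on the control arrays, without overlap in either.

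In fatty acid synthesis, ACSS2, which makes acetyl-CoA from acetate, read 5.77 and 5.81 with prednisolone and 4.39 and 4.57 with vehicle on arrays labelled BTG1 shRNA, against 6.48 and 6.34 with prednisolone and 5.70 and 6.06 with vehicle on the control arrays. Prednisolone arrays lay above vehicle arrays under both shRNAs, by 1.31 (SE 0.19) on arrays labelled BTG1 shRNA and 0.53 (SE 0.19) on the control arrays, and the vehicle arrays labelled BTG1 shRNA were the lowest. FASN, the synthase that assembles palmitate, read 9.52 and 9.26 with prednisolone and 8.50 and 8.72 with vehicle on arrays labelled BTG1 shRNA, and 8.50 and 8.03 with prednisolone and 9.30 and 9.28 with vehicle on the control arrays. The order of treatments was opposite, with differences of 0.78 (SE 0.22) on arrays labelled BTG1 shRNA and -1.02 (SE 0.22) on the control arrays. SCD, the desaturase that makes oleate, read 10.87 and 10.94 with prednisolone and 9.73 and 10.25 with vehicle on arrays labelled BTG1 shRNA, against 7.49 and 8.25 with prednisolone and 8.08 and 8.76 with vehicle on the control arrays. It separated by label throughout, and its prednisolone differences were 0.91 (SE 0.34) on arrays labelled BTG1 shRNA and -0.55 (SE 0.34) on the control arrays.

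ACLY, which splits citrate into acetyl-CoA, read 11.20 and 11.01 with prednisolone and 10.60 and 10.80 with vehicle on arrays labelled BTG1 shRNA, against 10.18 and 10.04 with prednisolone and 10.20 and 10.50 with vehicle on the control arrays. ACACA, the acetyl-CoA carboxylase, read 7.09 and 7.31 with prednisolone and 6.60 and 7.01 with vehicle on arrays labelled BTG1 shRNA, against 5.89 and 5.94 with prednisolone and 6.09 and 6.81 with vehicle on the control arrays. Both had the treatments in opposite order under the 2 labels, though for ACLY the control arrays came as close as 10.18 and 10.20. Prednisolone lay 0.40 (SE 0.19) on arrays labelled BTG1 shRNA and -0.24 (SE 0.19) on the control arrays from vehicle for ACLY, and 0.39 (SE 0.27) on arrays labelled BTG1 shRNA and -0.54 (SE 0.27) on the control arrays from vehicle for ACACA. ELOVL6, the elongase of palmitate, read 5.56 and 6.29 with prednisolone and 5.45 and 5.24 with vehicle on arrays labelled BTG1 shRNA, and 5.87 and 6.32 with prednisolone and 6.53 and 7.27 with vehicle on the control arrays. It was highest on the control vehicle arrays, and prednisolone lay 0.58 (SE 0.34) from vehicle on arrays labelled BTG1 shRNA and -0.80 (SE 0.34) on the control arrays. LPIN1, a phosphatidate phosphatase, differed from vehicle by 0.05 (SE 0.30) on arrays labelled BTG1 shRNA and by 0.96 (SE 0.30) on the control arrays.

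FADS2, the desaturase that starts polyunsaturated fatty acid synthesis, read 10.79 and 10.75 with prednisolone and 10.06 and 10.37 with vehicle on arrays labelled BTG1 shRNA, against 9.77 and 9.58 with prednisolone and 9.48 and 9.83 with vehicle on the control arrays. All 4 arrays labelled BTG1 shRNA lay above the control arrays, with a prednisolone difference of 0.55 (SE 0.21) on arrays labelled BTG1 shRNA and 0.02 (SE 0.21) on the control arrays. FADS1, the next desaturase, depended on the cluster read. The cluster with the highest mean, annotated with NCAPD2, a condensin subunit, and SCARNA10 beside FADS1 (3402571), read 9.23 and 9.39 with prednisolone and 9.16 and 9.47 with vehicle on arrays labelled BTG1 shRNA, against 10.50 and 10.36 with prednisolone and 10.10 and 10.51 with vehicle on the control arrays. The cluster annotated with FADS1 alone (3375545) read 10.04 and 10.16 with prednisolone and 9.25 and 9.68 with vehicle on arrays labelled BTG1 shRNA, against 9.02 and 9.24 with prednisolone and 8.92 and 9.46 with vehicle on the control arrays. The shared cluster was lower under the BTG1 shRNA label and the FADS1 cluster was not, so the value given for FADS1 by the rule may not be that of FADS1.

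Tested over all clusters with limma, prednisolone on arrays labelled BTG1 shRNA gave 0 calls among the 35 genes and 0 among all 17881 (0%), with a lowest adjusted p of 1. At an unadjusted p below 0.05, 12 of the 35 genes (34.3%) were higher and 0 lower, where 125 of all clusters (0.699%) were higher. These shares are no test of the list, which was chosen with earlier results known. The 12 were HMGCS1, MVK, MVD, LSS, HSD17B7, EBP, DHCR7, INSIG1, ACSS2, FASN, SCD and FADS2. Ranked by p among all clusters, ACSS2 came 2nd, LSS 4th, MVD 6th, MVK 8th, the shared HSD17B7 cluster 12th and INSIG1 21st. Arrays did not overlap and lay above vehicle for 24 of the 35, against 18% of all clusters, and below for PMVK and ABCA1, against 10.5%. The median difference was 0.55 for the genes and 0.03 for all clusters. By role it was 0.61 for the mevalonate genes, 0.64 for the sterol enzymes, 0.31 for the sensors and factors, -0.08 for transport and 0.55 for fatty acid genes. Without BTG1 shRNA vehicle array 1 the count of 12 became 7. It was 9 with the arrays centred on their medians and 17 with quantile normalization. With only the arrays compared it was 18, where 230 of all clusters were higher. The main fit shares its spread over all groups. The median difference between the 2 arrays of a group was 0.44 for control vehicle and 0.21 for control prednisolone. For BTG1 shRNA it was 0.18 with vehicle and 0.25 with prednisolone. The median prednisolone difference of 12 T-cell markers was -0.14 on arrays labelled BTG1 shRNA and -0.34 on the control arrays, and that of 11 B-lineage markers was 0.07 on arrays labelled BTG1 shRNA and -0.31 on the control arrays.

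**Figure D2:**
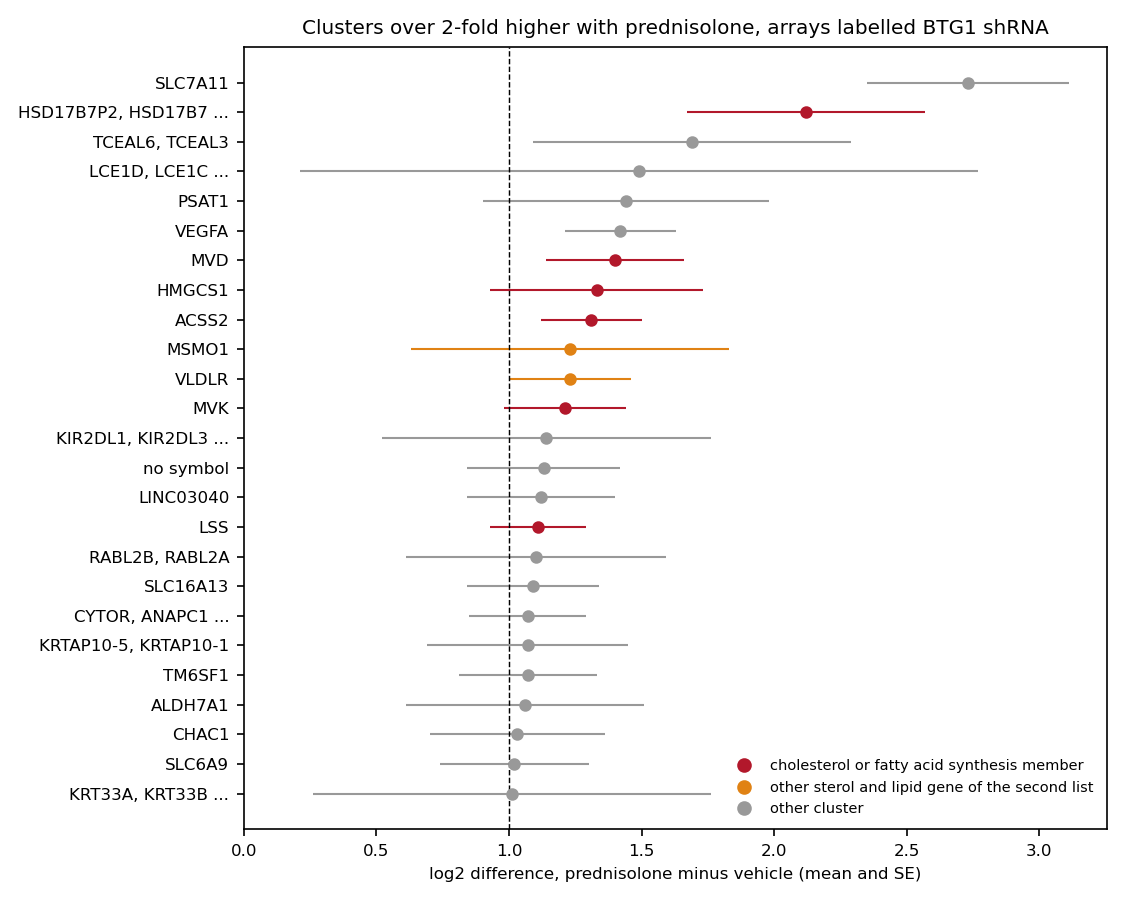
Differences in log2 level, with SE bars, of the 25 clusters over 2-fold higher with prednisolone than with vehicle on arrays labelled BTG1 shRNA, without a test. The 6 listed genes and the sterol and lipid genes MSMO1 and VLDLR are marked, and SLC7A11 has the largest value, 2.73.

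On the control arrays, prednisolone gave 0 calls among the 35 genes by limma, where 271 of all clusters passed (1.52%). At an unadjusted p below 0.05 there were 8 of the 35, against 14.1% of all clusters: INSIG2, ACSS2 and LPIN1 were higher, and LSS, DHCR7, SREBF1, FASN and ELOVL6 lower. FASN had the lowest adjusted p, 0.0804. Arrays lay above vehicle without overlap for 4 of the 35 (IDI1, INSIG2, ACSS2 and LPIN1), against 15.3% of all clusters. They lay below for 11, against 26.4%: FDPS, LSS, EBP, DHCR7, SREBF1, SCAP, MYLIP, ACLY, ACACA, FASN and ELOVL6. Over 2-fold, INSIG2 was higher (3.86% of all clusters) and FASN lower (1.39%). The genes' median of -0.18 lay beside -0.16 for all clusters. Quantile normalization made these -0.21 and -0.05, and centring the arrays on their medians made them -0.06 and -0.04.

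**Figure D3:**
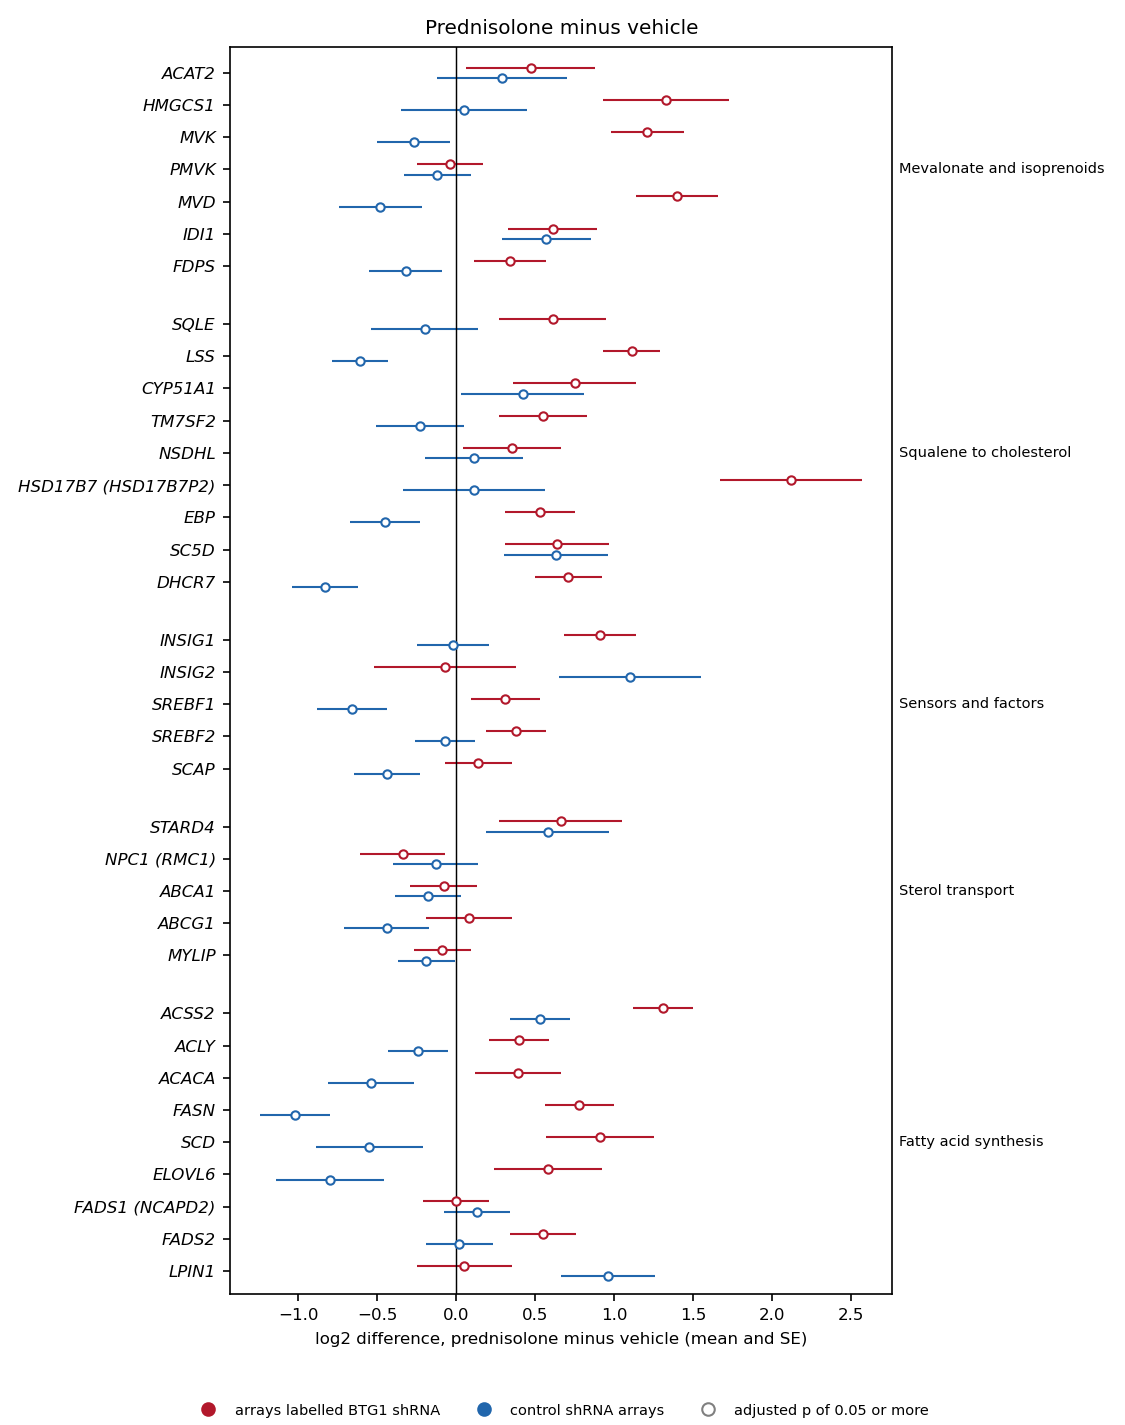
Difference in log2 level between prednisolone and vehicle arrays, with SE bars, for each of the 35 genes on arrays labelled BTG1 shRNA and on the control shRNA arrays. All 9 sterol enzymes lie right of 0 on arrays labelled BTG1 shRNA, and FASN lies at 0.78 there and at -1.02 on the control arrays.

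Whether the prednisolone differences differed between the labels was tested directly with limma. None of the 35 genes passed, where 24 of all clusters did (0.134%), and the lowest adjusted p was 0.0717, for LSS at 1.72 (SE 0.26). FASN followed at 1.80 (SE 0.31, adjusted p = 0.105), DHCR7 at 1.54 (SE 0.30, adjusted p = 0.166) and MVD at 1.88 (SE 0.37, adjusted p = 0.169). At an unadjusted p below 0.05, 14 of the 35 were higher on arrays labelled BTG1 shRNA and 0 lower, where 4.27% of all clusters were higher. Besides these 4 they were MVK, HSD17B7, EBP, INSIG1, SREBF1, ACSS2, ACLY, ACACA, SCD and ELOVL6. The difference was above 0 for 31 of the 35, against 65.2% of all clusters. Its median was 0.64 for the genes and 0.20 for all clusters, and centring the arrays on their medians made these 0.47 and 0.03 and gave 6 genes below that p in place of 14. The count was 9 without control prednisolone array 1, and 8 without BTG1 shRNA vehicle array 1 or BTG1 shRNA prednisolone array 2. Arrays lay above vehicle under the BTG1 label and below it under the control label, without overlap in either, for 9 genes: FDPS, LSS, EBP, DHCR7, SREBF1, ACLY, ACACA, FASN and ELOVL6. That held for 4.86% of all clusters.

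Between the labels under prednisolone, 16 of the 35 genes were higher on arrays labelled BTG1 shRNA by limma, where 10% of all clusters were. DHCR7 was higher by 4.20 (SE 0.21, adjusted p = 2.07e-05), or 18.3-fold. SCD was higher by 3.03 (SE 0.34, adjusted p = 0.000702), MVD by 2.63 (SE 0.26, adjusted p = 0.000412) and LSS by 2.59 (SE 0.18, adjusted p = 7.85e-05). HMGCS1 was higher by 2.37 (SE 0.40, adjusted p = 0.00568), ABCG1 by 1.98 (SE 0.27, adjusted p = 0.00211) and ACAT2 by 1.95 (SE 0.41, adjusted p = 0.0154). SREBF1 was higher by 1.69 (SE 0.22, adjusted p = 0.00158), TM7SF2 by 1.61 (SE 0.28, adjusted p = 0.00589) and EBP by 1.46 (SE 0.22, adjusted p = 0.00289). The other 6, ACACA, FASN, FADS2, ACLY, MVK and INSIG1, were higher by 0.89 to 1.29. By role the calls were 4 of 7 mevalonate genes, 4 of 9 sterol enzymes, 2 of 5 sensors and factors, 1 of 5 transport genes and 5 of 9 fatty acid genes. The 1 lower call, against 7.51% of all clusters, was the NCAPD2 and FADS1 cluster at -1.12 (SE 0.21, adjusted p = 0.00914), while the FADS1 cluster was higher by 0.97 (SE 0.25, adjusted p = 0.0317). The genes' median was 0.67 and that of all clusters 0.04, and centring made these 0.55 and -0.09. Without BTG1 shRNA prednisolone array 1, 10 of the 35 genes passed.

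Under vehicle the calls between the labels went in both directions, among the genes as among all clusters. By limma 5 of the 35 genes were higher on arrays labelled BTG1 shRNA, against 8.46% of all clusters: DHCR7 by 2.66 (SE 0.21, adjusted p = 0.000175), ACAT2 by 1.77 (SE 0.41, adjusted p = 0.0268), SCD by 1.57 (SE 0.34, adjusted p = 0.0184), ABCG1 by 1.46 (SE 0.27, adjusted p = 0.0104) and LSS by 0.87 (SE 0.18, adjusted p = 0.0166). Another 4 were lower, against 6.21%: the HSD17B7 cluster at -2.18 (SE 0.45, adjusted p = 0.0165), ELOVL6 at -1.55 (SE 0.34, adjusted p = 0.0196), ACSS2 at -1.40 (SE 0.19, adjusted p = 0.00229) and the NCAPD2 and FADS1 cluster at -0.99 (SE 0.21, adjusted p = 0.019). With arrays centred on their medians, 5 were higher and 1 lower. The genes' median was 0.13 and that of all clusters -0.15, and quantile normalization made these 0.17 and -0.04. Without BTG1 shRNA vehicle array 1, 3 genes passed, and without array 2 of that group, 2. DHCR7, SCD, LSS, ABCG1 and ACAT2 passed as higher under both treatments. Of the 9 calls under vehicle, those of DHCR7 and ACSS2 held whichever array was left out. The other 7 each ended without BTG1 shRNA vehicle array 2, and all of these but SCD ended without array 1 of that group too. SCD and ACAT2 also ended without control vehicle array 1. ACSS2 and the HSD17B7 cluster, lower under vehicle, did not pass under prednisolone, at -0.62 (SE 0.19, adjusted p = 0.0679) and -0.17 (SE 0.45, adjusted p = 0.994). The comparisons share no arrays across treatments, and 11 of 12 T-cell markers were higher in both. Their part in these differences was not tested.

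**Figure D4:**
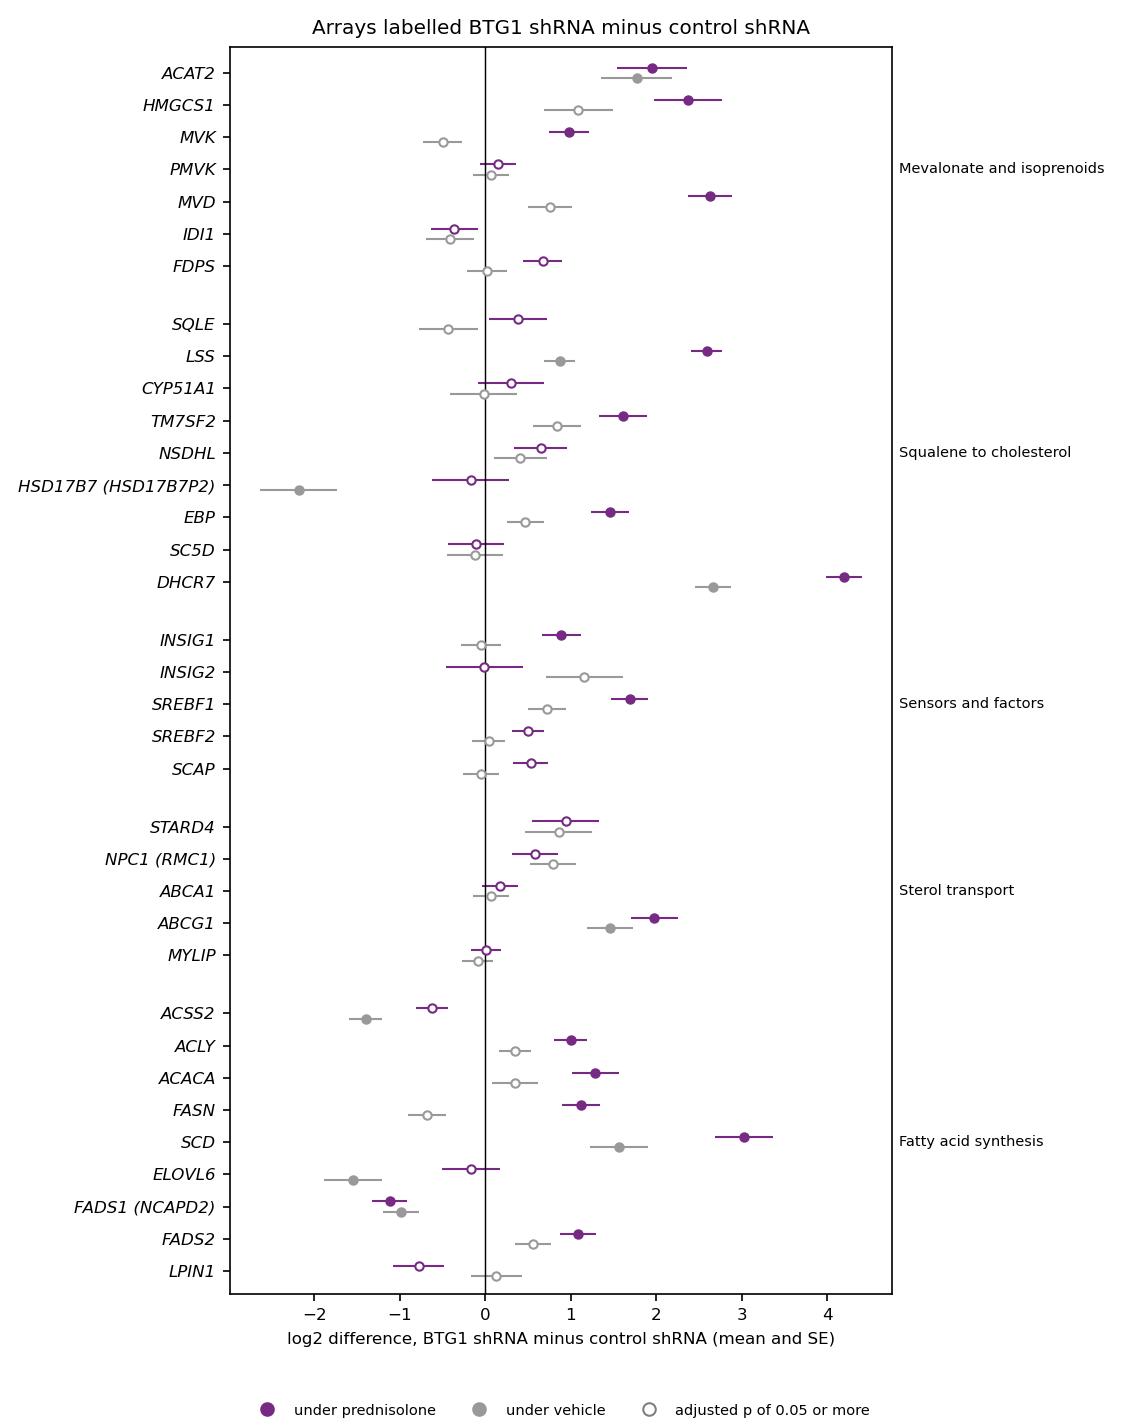
Difference in log2 level between arrays labelled BTG1 shRNA and control shRNA arrays, with SE bars, for each of the 35 genes with prednisolone and with vehicle. DHCR7 lies furthest right in both, at 4.20 with prednisolone and 2.66 with vehicle.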

How the data were processed

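Total RNA from 8 samples labelled RS4;11 was measured on Affymetrix Human Exon arrays, 2 per group, and probes were summarised over core meta-probe sets built on hg18, per the labels. Per the submitters' processing notes, RMA (robust multi-array averaging) and Partek were the tools, with no version or setting listed. The deposited table is on a log2 scale, but most decimal points were lost, so its values as deposited are a score and not a plain log2 value. Among 143048 values, 153 still had their point and ranged from 2.47 to 12.25. It was restored behind the leading digit, or behind 2 digits for the 2831 values starting with 1. Correlations between arrays were 0.4457 to 0.5868 as deposited and 0.8724 to 0.9946 afterwards. The unit was not the one assumed when the tests were chosen, and the tests were run as planned on the restored values.

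All 17881 clusters were fitted with 4 group means in limma 3.58.1 (R 4.3.3) by lmFit with eBayes, on 4 residual degrees of freedom plus a prior of 3.51, two-sided, with Benjamini-Hochberg adjustment over all clusters of each of 5 contrasts, a threshold of 0.05 and no filter on low values. The number of arrays limits the precision. Symbols came from the platform annotation (14432 clusters with 1 symbol, 2408 with several, 1041 with none). Every listed gene is accounted for. Values per array are given for genes called in any contrast and for the SREBP sensors and factors. Genes, companion lists, markers and motifs were chosen with earlier results of these data known. The scripts were tested on simulated data. Alternatives were quantile normalization, centring, a filter on dim clusters, an intensity trend, only the arrays compared, clusters with 1 symbol, a replicate block and leaving out each array, and those on counts over 2-fold or at an unadjusted p were added after seeing the data.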

Additional observations from a re-analysis of the deposited data

Results flagged for a closer look

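For 9 genes both prednisolone arrays lay above both vehicle arrays under the BTG1 shRNA label and below them under the control shRNA label, as for 4.86% of all clusters. Some gaps were small. On the control arrays the nearest prednisolone and vehicle values were 10.18 and 10.20 for ACLY and 6.98 and 7.01 for FDPS. The 2 control vehicle arrays differed by a median of 0.44 over all clusters. The difference of the prednisolone differences (BTG1 shRNA minus control shRNA, log2) was tested with limma, and 0 of the 9 passed. It was 1.72 for LSS (adjusted p = 0.0717), 1.80 for FASN (adjusted p = 0.105), 1.54 for DHCR7 (adjusted p = 0.166) and 0.99 for EBP (adjusted p = 0.437). SREBF1 stood at 0.97 (adjusted p = 0.457), ELOVL6 at 1.38 (adjusted p = 0.498), ACLY at 0.64 (adjusted p = 0.536), ACACA at 0.93 (adjusted p = 0.536) and FDPS at 0.65 (adjusted p = 0.537).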

How the results depend on the processing

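The replicate numbers were not shown to pair the arrays: deviations of same-numbered arrays correlated between groups at 0.007 to 0.593. With the replicate block, counts of called genes were 1 (FASN, lower, adjusted p = 0.0393) for prednisolone on the control arrays, 0 for prednisolone on arrays labelled BTG1 shRNA, 15 and 19 between the labels under vehicle and under prednisolone, and 2 (MVD and LSS, adjusted p = 0.0418 each) for the difference of the prednisolone differences. Leaving out 1 array gave 0 to 1 calls for prednisolone on the control arrays (IDI1 without control vehicle array 2), 2 to 13 between the labels under vehicle and 10 to 20 under prednisolone. At an unadjusted p below 0.05 it gave 7 to 17 genes for prednisolone on arrays labelled BTG1 shRNA and 8 to 16 for the difference, which centring made 6. Under prednisolone, leaving out an array ended the call of ACAT2, MVK, INSIG1, ACLY, ACACA, FASN, FADS2 or the NCAPD2 and FADS1 cluster, while DHCR7, LSS, MVD, SCD, HMGCS1, SREBF1, EBP, TM7SF2 and ABCG1 stayed called whichever array was left out. Read from clusters with 1 symbol, FADS1 turned to 0.27 under vehicle (adjusted p = 0.443) and 0.97 under prednisolone (adjusted p = 0.0317). The cause of these changes was not tested. Recomputed single-gene values were kept only where the gene was called in that comparison or its call changed under an alternative. Of these 655 values, 579 kept direction and side of the threshold, 49 lost and 25 gained a call. They do not cover every listed gene in every comparison. Calls over all clusters with prednisolone on the control arrays numbered 271, against 16 with only the arrays compared, 755 with the block and 40 to 770 on leaving out 1 array. For the difference they numbered 24, against 54 without dim clusters, 96 with the block and 0 to 24 on leaving out 1 array, and under vehicle 2623, against 4553 with the block and 1289 to 5958. Under prednisolone they numbered 3134, against 4321 with the block and 1746 to 3891. ABCA1 lay at the dim end of its arrays, where signal over background limits what can be seen.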

Other observations

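Of 43 other measured genes of sterol and lipid metabolism, 2 stood over 2-fold higher with prednisolone on arrays labelled BTG1 shRNA, against 0.14% of all clusters. On the control arrays 3 did, against 3.86% of all clusters. The median difference of the 43 was -0.01 on arrays labelled BTG1 shRNA and -0.03 on the control arrays. MSMO1, the sterol C4-methyl oxidase, read 9.05 and 9.56 with prednisolone and 8.27 and 7.88 with vehicle on arrays labelled BTG1 shRNA, a difference of 1.23 (SE 0.60). On the control arrays MSMO1 read 8.47 and 9.47 with prednisolone and 6.67 and 8.60 with vehicle. Those arrays overlapped, and the difference was 1.34 (SE 0.60). VLDLR, a lipoprotein receptor, read 7.51 and 7.49 with prednisolone and 6.02 and 6.51 with vehicle on arrays labelled BTG1 shRNA, and 9.16 and 9.08 with prednisolone and 8.26 and 8.71 with vehicle on the control arrays. Prednisolone arrays lay above vehicle arrays under both labels, by 1.23 (SE 0.23) on arrays labelled BTG1 shRNA and 0.63 (SE 0.23) on the control arrays.

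On the control arrays 3 of the 43 passed with prednisolone by limma, where 1.52% of all clusters did. ACACB, the mitochondrial acetyl-CoA carboxylase, rose by 1.16 (SE 0.20, adjusted p = 0.0425). The lipoprotein receptors SCARB1 and LRP8 fell, at -1.20 (SE 0.17, adjusted p = 0.02) and -0.96 (SE 0.18, adjusted p = 0.0491). SCARB1 read 7.05 and 6.87 with prednisolone against 8.12 and 8.19 with vehicle. On arrays labelled BTG1 shRNA the 3 differed from vehicle by 0.14 (SE 0.20), -0.04 (SE 0.17) and 0.16 (SE 0.18), in the order ACACB, SCARB1 and LRP8. Between the labels by limma, 7 of the 43 were higher on arrays labelled BTG1 shRNA under prednisolone (OSBPL5, LRP8, TMEM97, ELOVL5, SCD5, CPT1A and DGAT2, against 10% of all clusters) and 4 lower (COQ2, VLDLR, ACACB and ACSL5, against 7.51%). Under vehicle 3 were higher (ELOVL5, SCD5 and DGAT2, against 8.46% of all clusters) and 8 lower (COQ2, VLDLR, SCARB1, ABCA2, FADS3, ACSL5, LPIN2 and PPARA, against 6.21%). Of these, ACSL5, which activates long-chain fatty acids, read 3.43 and 3.13 with prednisolone on arrays labelled BTG1 shRNA, against 7.38 and 7.31 with prednisolone on the control arrays. The cluster of ELOVL5 also carries RPS16P5, that of LPIN2 carries CHORDC1 and CHORDC1P4, and that of PPARA carries CDPF1.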
